A study of Mus musculus with 13 samples.

Results

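The genes described here are 42 genes of mitosis and the kinetochore, from the cyclins and kinases that start division to the proteins that hold, pull and separate the chromosomes. They were taken by name from a list, each through a probe set annotated to that gene alone, and the probe set with the highest mean over all arrays was kept where a gene had several. All 42 were on the array, among 19938 genes with such a probe set, and only Top2a had more than 1 probe set (2). The names on the list came from gene function and not from the values, but the list was drawn up with earlier results of these data known, so it received no test of its own.

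The study followed the bone marrow of mice after the loss of blood. All mice were male C57BL/6 animals aged 6 weeks, with no mutation or transgene named, and in the phlebotomised groups 500 µL of blood was drawn by puncture behind the eye. Femurs were taken without bleeding (control) or at 4, 9, 12, 15 or 48 h after it, and total RNA of whole marrow was put on Affymetrix Mouse Gene 1.0 ST arrays, which read a gene through many short probes along its length. Sample titles carry serial numbers that fall into a larger run of 10 arrays and a smaller run of 3. The larger run held 2 controls, 1 array each at 4 and 9 h, and 2 arrays each at 12, 15 and 48 h, and the smaller run held 1 control and 2 arrays at 9 h. What the runs stand for was not given in the sources used here, and all comparisons were made within a run. Every value below is a log2 level or a difference of log2 levels, where a difference of 1 is a doubling, and errors are standard errors from the fit over the 10 arrays of the larger run unless another measure is named.

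Mitosis is driven by the kinase CDK1 with cyclin A or B, which condenses the chromosomes and assembles the spindle, and it ends when the anaphase-promoting complex destroys cyclin B and securin so that separase can part the sister chromatids. The kinetochore is the protein plate on the centromere to which spindle microtubules attach, and the spindle checkpoint delays anaphase until every kinetochore is attached. The messenger RNAs of most of these proteins are made mainly in dividing cells, late in the cell cycle, and in marrow those cells are the precursors of red cells, granulocytes, B cells and other lineages.

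Their shared timing in the cell cycle is classically tied to short promoter motifs, and 4 promoters from 4 roles are printed because they hold both kinds searched for. The motifs were the CHR element (TTTGAA or TTCGAA) and the CCAAT box, on both strands, in the RefSeq window from 250 bases before to 50 after each start in build GRCm38.p6. The 4 sequences below run 5′ to 3′ on the gene's own strand, from 250 bases before to 30 after the start, and capitals mark the motifs. They belong to Ccnb2 (cyclin B2, chr9:70421525-70421804, minus strand), Cdc20 (activator of the anaphase-promoting complex, chr4:118437314-118437593, minus strand), Cenpa (the histone H3 variant of centromeres, chr5:30666636-30666915, plus strand) and Kif11 (the motor that pushes spindle poles apart, chr19:37376132-37376411, plus strand).
Ccnb2: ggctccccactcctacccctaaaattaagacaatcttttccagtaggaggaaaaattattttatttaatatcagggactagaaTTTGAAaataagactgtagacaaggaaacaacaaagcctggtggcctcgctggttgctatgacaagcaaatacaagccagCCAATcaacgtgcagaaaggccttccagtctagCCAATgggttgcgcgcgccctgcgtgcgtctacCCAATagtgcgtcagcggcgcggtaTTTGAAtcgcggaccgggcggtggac
Cdc20: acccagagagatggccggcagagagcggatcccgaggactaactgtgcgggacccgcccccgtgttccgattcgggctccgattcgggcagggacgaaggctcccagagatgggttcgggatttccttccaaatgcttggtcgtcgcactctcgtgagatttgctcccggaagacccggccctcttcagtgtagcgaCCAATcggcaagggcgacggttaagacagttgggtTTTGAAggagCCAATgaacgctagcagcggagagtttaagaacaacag
Cenpa: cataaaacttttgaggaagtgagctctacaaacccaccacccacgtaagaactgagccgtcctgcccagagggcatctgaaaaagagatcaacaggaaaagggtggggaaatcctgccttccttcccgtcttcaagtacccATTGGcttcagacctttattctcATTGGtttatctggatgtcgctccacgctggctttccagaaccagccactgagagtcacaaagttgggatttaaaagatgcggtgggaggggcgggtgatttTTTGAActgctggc
Kif11: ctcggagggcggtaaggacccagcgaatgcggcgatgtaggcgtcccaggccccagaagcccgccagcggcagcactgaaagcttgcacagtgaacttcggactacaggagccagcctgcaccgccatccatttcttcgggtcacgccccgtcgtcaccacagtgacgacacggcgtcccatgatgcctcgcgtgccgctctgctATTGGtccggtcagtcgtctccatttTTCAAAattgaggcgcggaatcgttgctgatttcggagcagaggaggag
The Ccnb2 promoter carried 2 CHR elements and 3 CCAAT boxes, those of Cdc20 and Cenpa carried 1 and 2, and that of Kif11 carried 1 of each.

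The promoter table matched 34 of the 42 genes, with 37 promoters of 300 bases. A CHR element stood in 83.8% of these 37, against 19.2% of all 32851 promoters in the table. A CCAAT box stood in 78.4% against 37.4%, and both motifs together in 75.7% against 7.52%. Among promoters of 65 other mitosis genes both stood in 33.8%, among those of 41 DNA replication genes in 12.2%. These are counts of letters and not of bound sites. The differences in expression overlapped between promoters with and without them: at 48 h against 12 and 15 h, the 25 genes with both motifs had a median log2 difference of 0.21 (−0.01 to 0.38), and the 5 with neither (Birc5, Mad2l1, Nuf2, Nusap1 and Pttg1) had 0.18 (0.07 to 0.33).

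The 10 arrays of the larger run had medians of 6.98 to 7.03 over all probe sets, and the 3 of the smaller run had 7.77 to 7.80, so levels were not set across runs. Markers of marrow were present: the median level of Klf1 (an erythroid transcription factor) lay above 92.7% of genes, that of Elane (neutrophil elastase) above 99.7% and that of Ms4a1 (CD20 of B cells) above 93.2%. Vpreb1 (pre-B cell receptor) lay above only 34% of genes. Probe sets of 25 small intestine markers stood apart on the 4 h array, with a median log2 difference of 3.25 from the controls, and those of 22 liver markers on both 48 h arrays, with a median of 1.06 above 12 and 15 h. Array medians of the intestine markers, as deviations from gene means, were −0.02 in both controls and −0.32 to −0.52 at 9 to 48 h. At 9, 12, 15 and 48 h, 22, 22, 23 and 20 of the 25 were below the control mean. Their part in the comparisons with control was not tested. All 42 mitosis genes were well expressed, with mean levels above at least 63.3% of genes.

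The 2 controls of the larger run did not give the same level of mitosis transcripts. The second control was higher in 41 of 42 genes, by a median log2 difference of 0.28, or 1.22-fold, while the median over all genes was 0.01. The gap was largest for Cenpf (a large protein of the outer kinetochore), at 0.50, for Espl1 (separase), at 0.48, and for Cdc25c (the phosphatase that activates CDK1), at 0.45. Spc24 (a subunit of the NDC80 complex) was the exception, at −0.13. By role, the median gap ran from 0.16 in the spindle checkpoint to 0.38 in the pair of cytokinesis genes. In the other groups with 2 arrays the median difference between them was 0.00 at 12 h, 0.01 at 15 h and −0.05 at 48 h. The median absolute difference was 0.28 between the controls, 0.078 at 12 h, 0.047 at 15 h and 0.068 at 48 h, against 0.102 to 0.126 over all genes, so only the controls stood further apart in these genes than in a typical gene. The 24 erythroid precursor markers differed between the controls in the same direction, all 24 higher in the second control by a median of 0.49, and 10 of 12 mature B cell markers were lower there, with a median of −0.35. Of 15 neutrophil and monocyte precursor markers 9 were lower and 6 higher there, with a median of −0.09. The 16 B cell precursor markers were divided, 8 higher and 8 lower, with a median of 0.00. Of 17 osteoblast, stromal and endothelial markers 14 were lower in the second control, with a median of −0.41, and 7 of 8 megakaryocyte markers were higher, with a median of 0.16. Their part in the gap was not tested. In whole marrow, fewer cells of a kind and less RNA in each cell cannot be told apart.

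**Figure D1:**
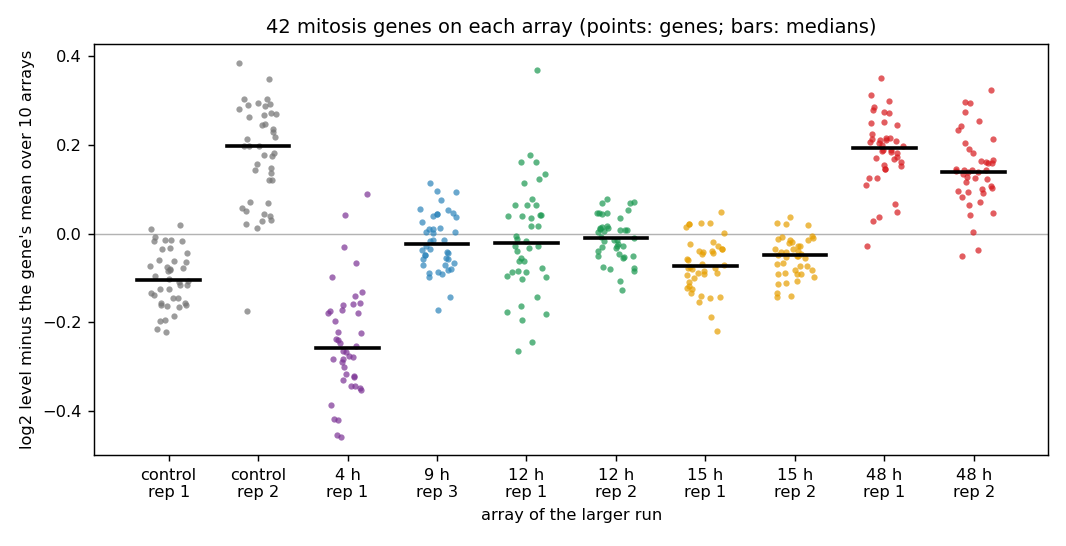
Each point is 1 of the 42 mitosis genes on 1 array of the larger run, as its log2 level minus that gene's mean over the 10 arrays, and bars are medians. The medians were −0.11 and 0.20 in the controls, −0.26 at 4 h, −0.02 at 9 h, −0.02 and −0.01 at 12 h, −0.07 and −0.05 at 15 h, and 0.19 and 0.14 at 48 h.

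The difference of 48 h from 12 and 15 h does not use the control levels. Its errors and p-values in the main fit do, because the spread was estimated over all 10 arrays, controls included. Mitosis transcripts were higher at 48 h in 41 of 42 genes, by a median log2 difference of 0.20 (range −0.01 to 0.38), or 1.15-fold, and the median over all genes was 0.02. In 33 of 42 genes, or 78.6%, both 48 h arrays lay above all 4 arrays of 12 and 15 h, against 15.4% of all genes. In 0 of 42 did they lie below, against 2391 of all 19938 genes. Against 12 h alone the median was 0.19 and against 15 h alone 0.22. The size was modest beside the errors: 0 of 42 genes passed the threshold of an adjusted p of 0.05 in limma's moderated test, which 0.276% of all genes did, and the lowest adjusted p was 0.156. Fitted with only the groups compared, 499 of all genes passed limma's test in place of 55, and still 0 of 42 mitosis genes did. At an unadjusted p under 0.05 in the main fit there were 17 of 42, all higher, against 14.3% of all genes in either direction. The median difference was smaller than the gap between the controls, and in 35 of 42 genes that gap was the larger of the 2 values. The gap compares single arrays and the difference compares means of arrays, so at equal noise the gap would vary more. Beside it the liver markers were higher at 48 h, where 12 of 22 passed the test, and their array medians were 0.81 and 0.56 at 48 h and −0.17 to −0.36 elsewhere. Erythroid precursor markers were above all 4 earlier arrays in 22 of 24, with a median of 0.34, though 0 of 24 passed the test and 14 were higher at an unadjusted p under 0.05. Of 15 neutrophil and monocyte precursor markers 12 were lower and 3 higher, with a median of −0.08. Of 16 B cell precursor markers 12 were lower and 4 higher, with a median of −0.06. In both lists 0 passed the test, and 4 and 2 were lower at an unadjusted p under 0.05. Of 17 osteoblast, stromal and endothelial markers 15 were lower at 48 h, with a median of −0.52, and 0 passed the test while 11 were lower and 1 was higher at an unadjusted p under 0.05. All 8 megakaryocyte markers were higher, with a median of 0.28, where 0 passed the test and 6 had an unadjusted p under 0.05. The part of these lists in the difference was not tested.

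In the first role, the cyclins and kinases that bring cells into mitosis, the median was 0.23 and all 6 genes lay above all 4 earlier arrays. Of all genes 15.4% lay above those arrays. Cdk1, the kinase itself, read 11.62 and 11.77 in the controls, 11.52 at 4 h, 11.71 at 9 h, 11.81 and 11.79 at 12 h, 11.70 and 11.70 at 15 h, and 11.91 and 11.91 at 48 h. Its 2 arrays at 48 h were the highest of the 10, and the difference from 12 and 15 h was 0.16 ± 0.08 (adjusted p = 0.401). Ccnb2, cyclin B2, read 12.74 and 13.02 in the controls, 12.59 at 4 h, 12.65 at 9 h, 12.60 and 12.72 at 12 h, 12.62 and 12.72 at 15 h, and 12.95 and 12.84 at 48 h. The second control was its highest array, and 48 h stood 0.23 ± 0.10 above 12 and 15 h (adjusted p = 0.34). Plk1, the kinase of spindle poles and kinetochores, read 11.13 and 11.48 in the controls, 11.02 at 4 h, 11.40 at 9 h, 11.04 and 11.25 at 12 h, 11.30 and 11.27 at 15 h, and 11.49 and 11.44 at 48 h. Its 12 h arrays lay 0.22 apart, the 9 h array lay above all 4 of 12 and 15 h, and the late difference was 0.25 ± 0.11 (adjusted p = 0.344). Aurka, the Aurora kinase of centrosomes, read 10.35 and 10.64 in the controls, 10.33 at 4 h, 10.59 at 9 h, 10.47 and 10.61 at 12 h, 10.60 and 10.57 at 15 h, and 10.84 and 10.74 at 48 h. Both 48 h arrays were above every other array, with 0.23 ± 0.10 against 12 and 15 h (adjusted p = 0.337). Ccna2 (cyclin A2) differed by 0.23 ± 0.10 and Cdc25c by 0.30 ± 0.13.

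The chromosomal passenger complex corrects wrong attachments between microtubules and kinetochores, and its 4 genes divided. Aurkb, its kinase, read 11.33 and 11.54 in the controls, 11.20 at 4 h, 11.44 at 9 h, 11.15 and 11.30 at 12 h, 11.24 and 11.37 at 15 h, and 11.57 and 11.29 at 48 h. The 48 h arrays were far apart and overlapped 12 and 15 h, and the difference was 0.17 ± 0.11 (adjusted p = 0.525). Birc5 (survivin), the subunit that finds centromeric chromatin, read 9.85 and 10.08 in the controls, 9.85 at 4 h, 9.97 at 9 h, 10.11 and 10.06 at 12 h, 10.004 and 9.999 at 15 h, and 10.34 and 10.23 at 48 h. Here the 48 h arrays were the highest of the 10, at 0.24 ± 0.09 above 12 and 15 h (adjusted p = 0.269). Incenp, the scaffold, also did not overlap, at 0.27 ± 0.11, while Cdca8 (borealin) overlapped, at 0.10 ± 0.12.

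The spindle checkpoint had a median of 0.17 over 5 genes, of which 3 lay above all 4 earlier arrays, against 15.4% of all genes. Bub1, the kinase that loads the checkpoint onto kinetochores, read 10.45 and 10.61 in the controls, 10.14 at 4 h, 10.64 at 9 h, 10.70 and 10.61 at 12 h, 10.47 and 10.55 at 15 h, and 10.75 and 10.71 at 48 h. The 4 h array was the lowest by a clear margin, and the 48 h arrays were the highest by a narrow one, with a late difference of 0.15 ± 0.08 (adjusted p = 0.459). Mad2l1, which holds back Cdc20, read 11.96 and 12.13 in the controls, 11.79 at 4 h, 12.12 at 9 h, 12.18 and 12.04 at 12 h, 11.99 and 12.04 at 15 h, and 12.14 and 12.33 at 48 h. A 12 h array exceeded a 48 h array, and the difference was 0.17 ± 0.09 (adjusted p = 0.458). Bub1b (BubR1) stood at 0.23 ± 0.08 and Ttk (the kinase Mps1) at 0.21 ± 0.10, both without overlap. Bub3 was the only gene of the 42 with a value below 0, at −0.01 ± 0.07 with a 95% interval of −0.18 to 0.16, and its 12 h arrays were its highest.

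Of the 4 genes that trigger anaphase, 3 lay above all 4 earlier arrays, against 15.4% of all genes. The median over the 4 was 0.16. Cdc20 read 9.59 and 9.87 in the controls, 9.69 at 4 h, 9.85 at 9 h, 9.68 and 9.70 at 12 h, 9.76 and 9.69 at 15 h, and 9.92 and 9.80 at 48 h. Its 9 h array and second control lay among the 48 h values, and the late difference was 0.15 ± 0.10 (adjusted p = 0.511). Espl1 differed by 0.29 ± 0.12 and Pttg1 (securin) by 0.18 ± 0.07. Ube2c, the ubiquitin-conjugating enzyme that works with the anaphase-promoting complex, overlapped, at 0.12 ± 0.10.

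Among the 7 centromere and kinetochore genes, with a median of 0.19, 4 lay above all 4 earlier arrays, against 15.4% of all genes. Cenpa read 11.14 and 11.48 in the controls, 11.04 at 4 h, 11.16 at 9 h, 11.19 and 11.12 at 12 h, 11.06 and 11.11 at 15 h, and 11.35 and 11.34 at 48 h. The 48 h arrays agreed closely and stood above 12 and 15 h by 0.23 ± 0.10 (adjusted p = 0.354), yet the second control was higher still. Ndc80, which binds the microtubule end, read 9.12 and 9.34 in the controls, 8.93 at 4 h, 9.11 at 9 h, 9.32 and 9.19 at 12 h, 9.13 and 9.11 at 15 h, and 9.45 and 9.31 at 48 h. A 12 h array lay between the 48 h arrays, and the difference was 0.19 ± 0.09 (adjusted p = 0.396). Cenpe (a kinetochore motor) and Cenpf gave larger differences, 0.32 ± 0.12 and 0.30 ± 0.13. The other subunits of the NDC80 complex gave the smallest in this role, with Spc25 at 0.09 ± 0.13, Nuf2 at 0.07 ± 0.08 and Spc24 at 0.06 ± 0.09. The 95% interval for Spc24 was −0.15 to 0.27, which holds the median over the 42 genes.

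**Figure D2:**
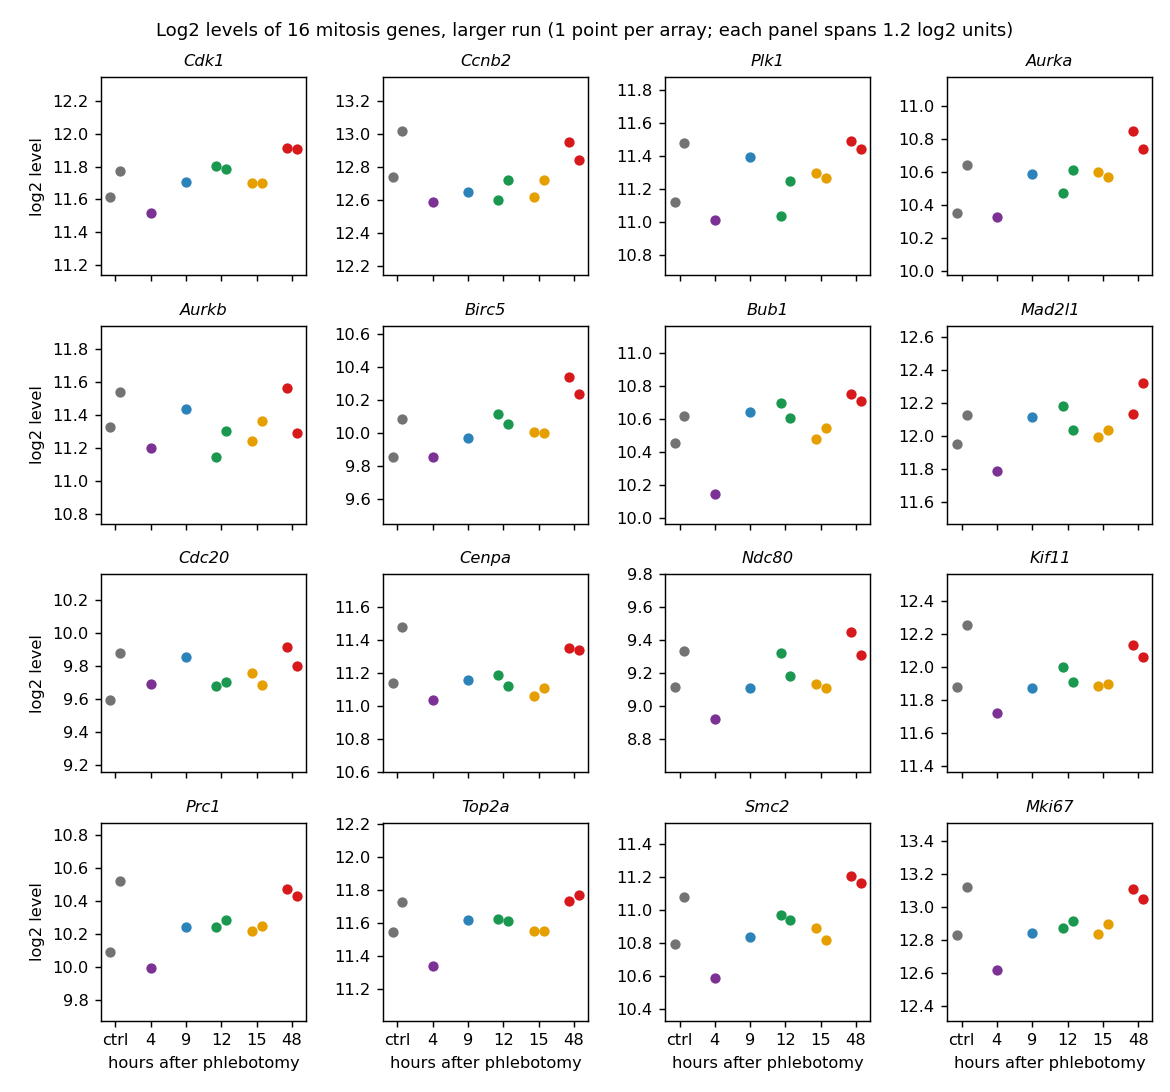
Log2 levels of 16 genes, 1 point per array of the larger run, against hours after phlebotomy, with each panel spanning the same range. In Cdk1, Aurka, Birc5, Bub1, Smc2 and Top2a both 48 h arrays were above all other arrays, while in Ccnb2, Cenpa, Kif11, Prc1 and Mki67 the second control was the highest array.

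All 8 spindle motors and microtubule proteins lay above the 4 earlier arrays at 48 h, with a median of 0.20. Of all genes 15.4% lay above those arrays. Kif11 read 11.88 and 12.25 in the controls, 11.72 at 4 h, 11.87 at 9 h, 12.00 and 11.91 at 12 h, 11.89 and 11.90 at 15 h, and 12.14 and 12.06 at 48 h. The spread between its controls exceeded its late difference of 0.18 ± 0.11 (adjusted p = 0.498). Prc1, which bundles the microtubules of the central spindle, read 10.09 and 10.52 in the controls, 9.99 at 4 h, 10.24 at 9 h, 10.24 and 10.28 at 12 h, 10.21 and 10.24 at 15 h, and 10.47 and 10.43 at 48 h. Its 12 and 15 h arrays were close together, with 48 h higher by 0.21 ± 0.11 (adjusted p = 0.454). Kif4, a motor of chromosome arms and the central spindle, had the largest late difference of all 42, 0.38 ± 0.10 (adjusted p = 0.156, 95% interval 0.15 to 0.61). It read 9.62 and 9.90 in the controls, 9.38 at 4 h, 9.67 at 9 h, 9.63 and 9.71 at 12 h, 9.53 and 9.71 at 15 h, and 10.03 and 10.02 at 48 h, so that both 48 h arrays were above every other array. Nusap1, which bundles microtubules near chromosomes, had the third largest, at 0.33 ± 0.11 (adjusted p = 0.22). Its arrays read 11.95 and 12.32 in the controls, 11.63 at 4 h, 11.79 at 9 h, 11.97 and 11.82 at 12 h, 11.71 and 11.80 at 15 h, and 12.15 and 12.17 at 48 h, and the second control was the highest. Kif23 stood at 0.21 ± 0.11, Kif20a at 0.20 ± 0.11, Kif2c at 0.19 ± 0.09 and Tpx2 at 0.17 ± 0.09.

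Ect2 and Anln, which position and build the contractile ring, differed by 0.21 ± 0.11 and 0.19 ± 0.11 without overlap. The 5 chromosome structure genes differed widely among themselves. Ncapd2, a condensin subunit, had the second largest difference, 0.36 ± 0.11 (adjusted p = 0.199), from 10.55 and 10.83 in the controls, 10.36 at 4 h, 10.52 at 9 h, 10.27 and 10.41 at 12 h, 10.41 and 10.49 at 15 h, and 10.89 and 10.63 at 48 h. Its 48 h arrays were unequal, and its 12 h arrays were the lowest of the 10 but for the 4 h array, which lay between them. Smc2, a core subunit shared by both condensins, read 10.80 and 11.08 in the controls, 10.59 at 4 h, 10.84 at 9 h, 10.97 and 10.94 at 12 h, 10.89 and 10.82 at 15 h, and 11.21 and 11.16 at 48 h. Both 48 h arrays were the highest, at 0.28 ± 0.09 (adjusted p = 0.231). Smc4, its partner in both condensins, differed by only 0.03 ± 0.10 (95% interval −0.18 to 0.25) and overlapped. Top2a, which untangles DNA, read 11.54 and 11.73 in the controls, 11.34 at 4 h, 11.62 at 9 h, 11.62 and 11.61 at 12 h, 11.55 and 11.55 at 15 h, and 11.73 and 11.77 at 48 h. The 48 h arrays were again the highest, with a late difference of 0.16 ± 0.08 (adjusted p = 0.405). Ncapg, another condensin subunit, stood at 0.20 ± 0.08. Mki67, the Ki-67 protein that coats mitotic chromosomes and serves as a marker of dividing cells, read 12.83 and 13.12 in the controls, 12.62 at 4 h, 12.84 at 9 h, 12.87 and 12.91 at 12 h, 12.84 and 12.90 at 15 h, and 13.11 and 13.05 at 48 h. Its late difference was 0.20 ± 0.10 (adjusted p = 0.387), and the second control was its highest array.

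**Figure D3:**
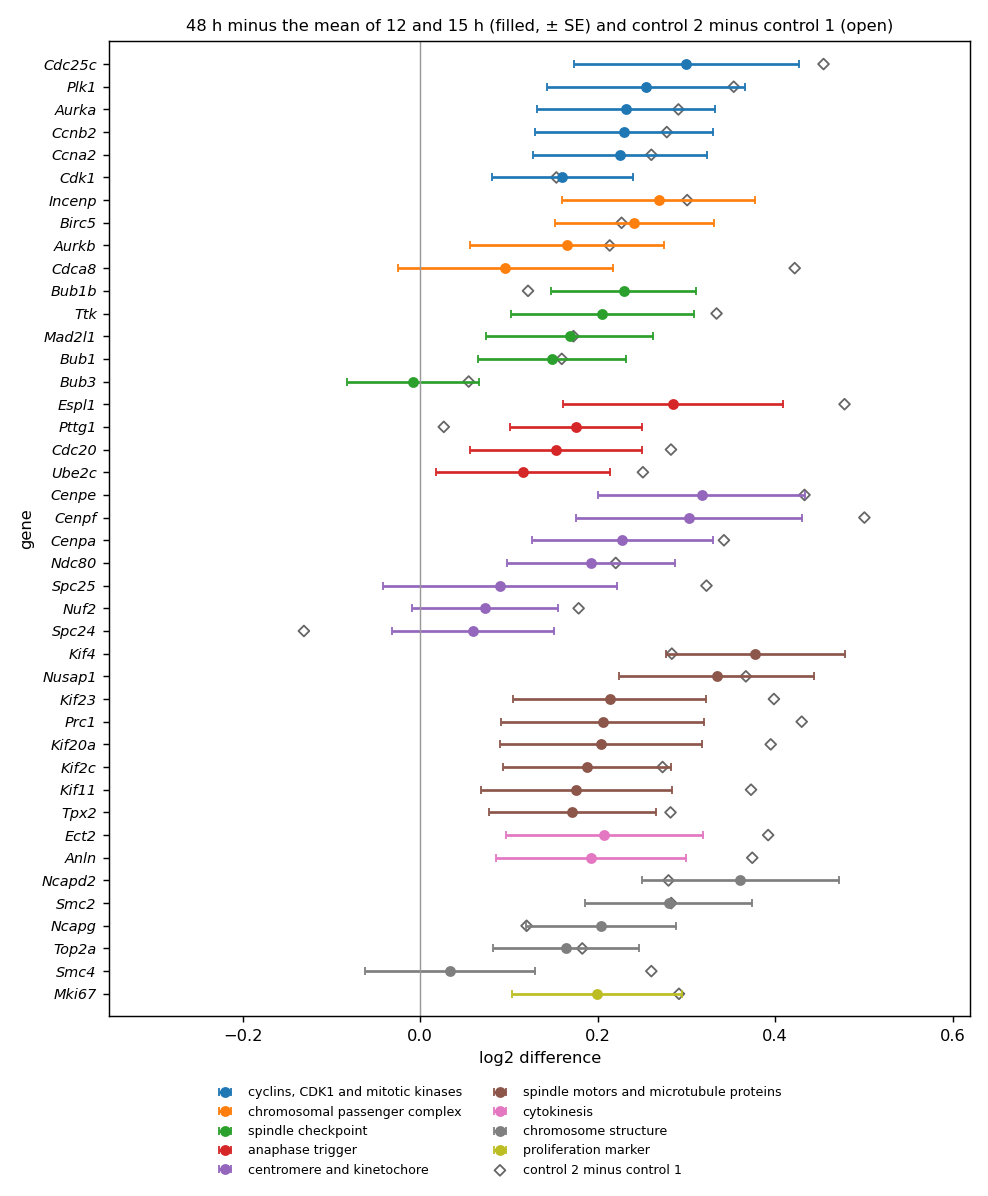
Filled points give each gene's log2 difference of 48 h from the mean of 12 and 15 h, with its standard error, coloured by role, and open diamonds give the second control minus the first. Filled points run from −0.01 in Bub3 to 0.38 in Kif4, and the diamond lies further from 0 in 35 of 42 genes. A diamond compares single arrays and a filled point compares means of arrays, so at equal noise diamonds would vary more.

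Against the controls, the same 48 h arrays gave a smaller difference. The median over the 42 genes was 0.13 (range −0.08 to 0.32), 38 were higher, and the median over all genes was 0.02. Both 48 h arrays were above both controls in 13 of 42 genes, or 31.0%, against 24.2% of all genes. They were below both in 0 of 42, against 3181 of all 19938 genes. By limma's test 0 of 42 passed (0.155% of all genes did), with a lowest adjusted p of 0.297. At an unadjusted p under 0.05 there were 6, or 14.3%, against 11.8% of all genes, a share near the background: Cdk1, Aurka, Birc5, Kif4, Smc2 and Ncapg. The largest values were Birc5 at 0.32 ± 0.10 (adjusted p = 0.297), Aurka at 0.30 ± 0.12 and Kif4 at 0.26 ± 0.12, and the lowest were Cdca8 at −0.08 ± 0.14, Smc4 at −0.04 ± 0.11 and Ube2c at −0.02 ± 0.11. Cdk1 stood at 0.21 ± 0.09, Smc2 at 0.25 ± 0.11, Bub1 at 0.20 ± 0.10, Mad2l1 at 0.19 ± 0.11, Plk1 at 0.17 ± 0.13, Ndc80 and Prc1 at 0.15 ± 0.11 and 0.15 ± 0.13, and Cdc20 at 0.13 ± 0.11. Those of Top2a and Mki67 were 0.11 ± 0.09 and 0.10 ± 0.11. Ccnb2, Cenpa and Kif11 were within 0.04 of the control mean, and Aurkb stood at −0.00 ± 0.13. The result turned on the control: against the first alone all 42 genes were higher, with a median of 0.27, and against the second alone 17 were higher and 25 lower, with a median of −0.03. The liver markers were also higher than in the controls at 48 h, where 9 of 22 passed the test, and the erythroid precursor markers had a median of 0.30 with 0 of 24 past it and 9 of 24 at an unadjusted p under 0.05. All 15 neutrophil and monocyte precursor markers were lower, with a median of −0.15. Of 16 B cell precursor markers 14 were lower and 2 higher, with a median of −0.21. In both lists 0 passed the test, and 5 and 4 were lower at an unadjusted p under 0.05. Of the osteoblast, stromal and endothelial markers 14 of 17 were lower than in the controls, with a median of −0.36, 0 past the test, and 7 lower and 2 higher at an unadjusted p under 0.05.

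**Figure D4:**
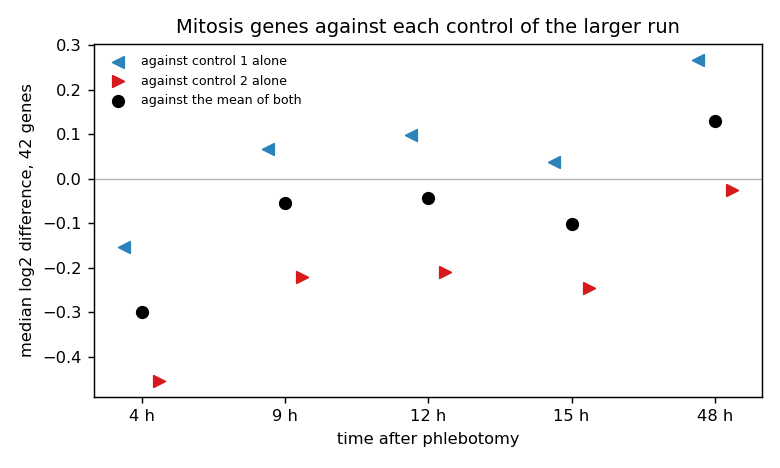
Median log2 difference of the 42 mitosis genes at each time, against the first control alone, the second alone, or the mean of both, in the larger run. At 4 h all 3 values were below 0 (−0.15, −0.45 and −0.30), and at 9, 12, 15 and 48 h the sign depended on the control.

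The single array at 4 h was the lowest of the 10 in 33 of 42 genes. Its median difference from the control mean was −0.30 (range −0.51 to 0.20), or 1.23-fold lower, and 40 of 42 values were below 0, while the median over all genes was 0.00. The array lay below both controls in 37 genes, or 88.1%, against 35.5% of all genes. With 1 array the spread came from the other groups, and 0 of 42 passed limma's test, which 1.38% of all genes did, with a lowest adjusted p of 0.242. At an unadjusted p under 0.05 there were 17, all lower, or 40.5%, against 11.2% of all genes. Cenpf, Nusap1 and Cdc25c gave the lowest values, −0.51 ± 0.18, −0.50 ± 0.16 and −0.48 ± 0.18 (adjusted p = 0.327, 0.256 and 0.35). The highest were Spc24 at 0.20 ± 0.13 and Pttg1 at 0.04 ± 0.11, both above both controls, and Bub1b at −0.01 ± 0.12. With the first control left out, and so against the second alone, Cdc25c, Cenpe, Cenpf, Kif20a and Nusap1 passed the test, with adjusted p from 0.0222 to 0.0453, and with the second left out 0 of 42 did.

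Among the roles with more than 1 gene, the medians at 4 h were lowest for cytokinesis (−0.36), the spindle motors (−0.34) and chromosome structure (−0.32), and nearest to 0 for the anaphase triggers (−0.10). All 8 spindle motors, all 6 cyclins and kinases, all 4 passenger genes and all 5 chromosome structure genes lay below both controls. On this single array 35.5% of all genes did. Of the checkpoint, Bub1 stood at −0.39 ± 0.12 and Mad2l1 at −0.25 ± 0.13. The kinetochore genes Ndc80 and Cenpa stood at −0.30 ± 0.13 and −0.27 ± 0.14. Mki67 differed by −0.36 ± 0.14, Smc2 by −0.35 ± 0.13, Kif11 by −0.35 ± 0.15, Prc1 by −0.31 ± 0.16 and Top2a by −0.30 ± 0.12. Among the kinases, Plk1 stood at −0.29 ± 0.16, Aurkb at −0.23 ± 0.15, Cdk1 at −0.18 ± 0.11 and Aurka at −0.17 ± 0.14, and the cyclin Ccnb2 stood at −0.29 ± 0.14. Birc5 at −0.11 ± 0.13 and Cdc20 at −0.05 ± 0.14 differed by less than their errors. On the same array 20 of 25 small intestine markers rose by the test, with an array median of 3.17 against −0.02 in both controls. Mature B cell markers had a median of 0.40 with 0 of 12 past the test and 5 higher and 1 lower at an unadjusted p under 0.05, and erythroid precursor markers had −0.28, with 17 of 24 below both controls. Of 15 neutrophil and monocyte precursor markers 8 were higher and 7 lower, with a median of 0.14. Of 16 B cell precursor markers 15 were lower and 1 higher, with a median of −0.18. The part of these lists in the lower mitosis values was not tested.

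At 9, 12 and 15 h few mitosis genes lay outside the range of the 2 controls. That range was wide in these genes, with a median absolute difference of 0.28 against 0.126 over all genes. Low counts outside it therefore cannot show that mitosis genes were steadier than other genes. At 9 h, on 1 array, the median was −0.05, against 0.03 over all genes. Below both controls lay 9 of 42, or 21.4%, against 29.7% of all genes. Above both lay 3 of 42, against 8162 of all 19938 genes. By limma's test 0 of 42 passed (0.0802% of all genes), with a lowest adjusted p of 0.401, and 0 had an unadjusted p under 0.05, against 12.7% of all genes. The lowest were Nusap1 at −0.34 ± 0.16, Ccnb2 at −0.23 ± 0.14 and Incenp at −0.19 ± 0.15, and the highest were Cdc20 at 0.12 ± 0.14, Spc24 at 0.11 ± 0.13 and Bub1 at 0.11 ± 0.12. Among the lead genes, Kif11 stood at −0.19 ± 0.15, Cenpa at −0.15 ± 0.14, Mki67 at −0.13 ± 0.14, Ndc80 at −0.11 ± 0.13 and Smc2 at −0.10 ± 0.13. Plk1, Aurka and Mad2l1 stood at 0.09 ± 0.16, 0.09 ± 0.14 and 0.07 ± 0.13. Prc1, Top2a, Cdk1, Aurkb and Birc5 lay between −0.06 and 0.01.

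At 12 h the median was −0.04, against −0.00 over all genes. Both arrays lay below both controls in 6 of 42 genes, or 14.3%, against 20.0% of all genes (Ccnb2, Aurkb, Incenp, Bub1b, Pttg1 and Ncapd2). They lay above both in 3 of 42 (Cdk1, Bub3 and Nuf2), against 4004 of all 19938 genes. By the test 0 of 42 passed (0.0502% of all genes), with a lowest adjusted p of 0.434, and 1 of 42, Ncapd2, had an unadjusted p under 0.05, against 9.72% of all genes. Ncapd2 stood at −0.35 ± 0.13, Incenp at −0.24 ± 0.13 and Nusap1 at −0.24 ± 0.13. The highest were Spc25 at 0.19 ± 0.15, Spc24 at 0.15 ± 0.11 and Bub1 at 0.12 ± 0.10. Ccnb2 and Aurkb differed by −0.22 ± 0.12 and −0.21 ± 0.13, Plk1 and Cenpa by −0.16 ± 0.13 and −0.15 ± 0.12, and Birc5 and Cdk1 by 0.12 ± 0.10 and 0.10 ± 0.09. The rest of the leads, Aurka, Mad2l1, Cdc20, Ndc80, Kif11, Prc1, Top2a, Smc2 and Mki67, lay between −0.11 and 0.07.

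At 15 h the median was −0.10, against 0.00 over all genes, and 36 of 42 values were below 0. Both arrays lay below both controls in 6, or 14.3%, against 19.2% of all genes (Ccnb2, Incenp, Pttg1, Cenpa, Nusap1 and Ncapd2). They lay above both in 0 of 42, against 4054 of all 19938 genes. By the test 0 of 42 passed (0.110% of all genes), with a lowest adjusted p of 0.404, and 1 of 42, Nusap1, had an unadjusted p under 0.05, against 9.52% of all genes. Nusap1 stood at −0.38 ± 0.13, Ncapd2 at −0.23 ± 0.13 and Incenp at −0.23 ± 0.13, and the highest were Aurka at 0.08 ± 0.12, Spc24 at 0.07 ± 0.11 and Birc5 at 0.03 ± 0.10. Cenpa and Ccnb2 differed by −0.23 ± 0.12 and −0.21 ± 0.12, Kif11 by −0.18 ± 0.12 and Aurkb by −0.13 ± 0.13. The rest of the leads lay between −0.11 and 0.00. Against the first control alone the medians were 0.07 at 9 h, 0.10 at 12 h and 0.04 at 15 h, and against the second alone they were −0.22, −0.21 and −0.25, so the direction at these times rested on which control was used.

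The smaller run gave a further look at 9 h, with 1 control and no test. The median difference of the 42 genes from that control was −0.05 and −0.02 on its 2 arrays. Both arrays were below the control in 25 of 42 genes and above it in 1. Over all 19938 genes both were below in 3040 and above in 2553, while 9514 held the same value on all 3 arrays. The mean of the 2 differences ran from −0.24 in Espl1 to 0.02 in Bub3. Espl1 read 9.99 in the control and 9.72 and 9.78 at 9 h. Ccnb2 read 13.35 against 13.17 and 13.24, Mki67 read 13.51 against 13.39 and 13.43, and Cdk1 read 12.34 against 12.31 and 12.35. In 15 of 42 genes at least 2 of the 3 arrays held the same value to the last digit, as did 75.6% of all genes, and in 7 (Aurka, Ttk, Cdc20, Nuf2, Spc25, Tpx2 and Smc4) all 3 did, so these arrays were not read as independent measurements.

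Other genes of the cell cycle were set beside the 42. Of 79 other mitosis genes, 0 passed limma's test at 4 h or 48 h, with medians of −0.27 at 4 h and 0.14 at 48 h against the controls and 0.22 at 48 h against 12 and 15 h. In the last, 48 of 79 lay above all 4 earlier arrays. At an unadjusted p under 0.05 there were 27 lower at 4 h, 14 higher at 48 h against the controls and 31 higher at 48 h against 12 and 15 h. Over all genes the shares at that p, in either direction, were 11.2%, 11.8% and 14.3%. The share of all genes above the 4 earlier arrays was 15.4%. The 49 DNA replication genes, which act in S phase before mitosis, also had 0 past the test, with medians of −0.24, 0.27 and 0.22, and 17 lower, 29 higher and 31 higher at an unadjusted p under 0.05. Against the controls at 48 h, 40 of 49 lay above both controls, against 13 of 42 mitosis genes and 24.2% of all genes. Their gap between the controls was smaller, with a median of 0.19 against 0.28. The difference between the lists was not tested. The 28 genes of the anaphase-promoting complex, cohesin and spindle that cells also use outside mitosis had medians of −0.07, 0.05 and 0.03, with 0 past the test, 6 of 28 above all 4 earlier arrays, and a median of −0.01 between the controls. At an unadjusted p under 0.05 there were 3 lower at 4 h, 1 higher at 48 h against the controls, and 4 higher and 1 lower at 48 h against 12 and 15 h.

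**Figure D5:**
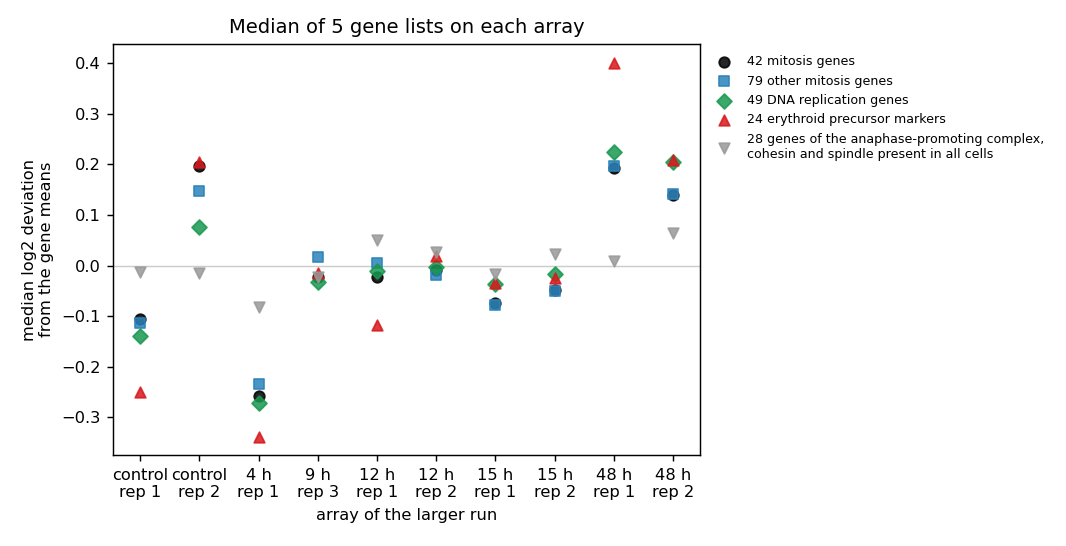
Median log2 deviation from each gene's mean over the 10 arrays of the larger run, for the 42 mitosis genes and 4 other lists. The 42 genes, the other mitosis genes, the DNA replication genes and the erythroid precursor markers were all lowest on the 4 h array and above 0 on the second control and both 48 h arrays, while the 28 genes used in all cells stayed between −0.08 and 0.07.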

How the data were processed

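Femur marrow RNA of 13 samples was hybridised to Affymetrix Mouse Gene 1.0 ST arrays. The authors deposited log2 values made with RMA, which summarises the probes of each probe set into 1 level (per the submitters' processing notes). No version of it was given in the sources used here, nor which arrays were normalised together. Array data carry no read depth, and precision is limited by how many arrays a group had.

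Of 35557 probe sets, 21789 had 1 gene symbol in the platform annotation, 1621 had several and 12147 were not listed with a gene. Symbols of 21698 were updated through Entrez identifiers, and 19938 genes remained, 999 of them with several probe sets, for which the highest mean was kept. Groups came from the time label. The labels give no replicate numbers, so arrays were numbered in accession order and numbers pair nothing. No label says that replicates are separate animals, so p-values measure the spread between these arrays, which may be technical.

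limma 3.58.1 in R 4.3.3 (lmFit, eBayes) was fitted to the 10 arrays of the larger run with 6 groups (4 residual and 5.17 prior degrees of freedom), with Benjamini-Hochberg adjustment over 19938 genes and a threshold of 0.05. The fit was tested on simulated data. The groups at 4 and 9 h had 1 array each and took the spread of the others. Promoters and figures were handled in Python 3.11.15 with matplotlib 3.10.9, and promoter sequences are from RefSeq.

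In every comparison the text names members past the threshold, or the 3 highest and 3 lowest values, and 16 leads of the roles, with further members added to complete a role after their values were seen. The members, the other gene lists, the motifs and this rule were chosen with earlier results of these data known. Alternatives covered scaling, the probe set kept, the filter on dim genes, the arrays fitted and each array left out.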

Additional observations from a re-analysis of the deposited data

Results flagged for a closer look

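The median of the 42 mitosis genes stood on opposite sides of the control mean at 48 h and at every earlier time in the larger run. For 4 h this held against the first control alone (−0.15 at 4 h and 0.27 at 48 h) and not against the second (−0.45 and −0.03). For 9, 12 and 15 h it held against neither control alone. Against the first, the medians at 9, 12, 15 and 48 h were all above 0 (0.07, 0.10, 0.04 and 0.27). Against the second, all were below 0 (−0.22, −0.21, −0.25 and −0.03). The 48 h median exceeded that of 4 h by 0.42, that of 9 h by 0.18, that of 12 h by 0.19 and that of 15 h by 0.22 on the log2 scale, each as the median over genes of the difference between the times. These values share the 2 controls only as a reference, which drops out of each difference. The difference over the list was not tested. Gene by gene, limma's test of 48 h against 12 h had 0 of 42 past the threshold and 6 at an unadjusted p under 0.05. Over all 19938 genes it had 23 higher and 2 lower past the threshold, and 1284 higher and 991 lower at the unadjusted p. For 48 h against 15 h the 42 genes had 0 and 12. All genes had 29 higher and 8 lower past the threshold there, and 1365 higher and 1156 lower at the unadjusted p. The differences of 48 h from 4 h and from 9 h were not tested.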

How the results depend on the processing

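The 48 h difference from 12 and 15 h kept its size under every alternative: the median over the 42 genes ran from 0.17 to 0.23 with any array left out, none of the 16 lead genes changed sign, and 0 of 42 passed the threshold. Differences from the controls moved with the control that was left out. With each array left out in turn, the median ran from −0.45 to −0.15 at 4 h, from −0.22 to 0.067 at 9 h, from −0.21 to 0.10 at 12 h, from −0.25 to 0.037 at 15 h and from −0.025 to 0.27 at 48 h, and in each case both ends came from leaving out a control. The count past the threshold at 4 h ran from 0 to 5, the 5 without the first control. Under all other alternatives run it stayed at 0 in all 6 comparisons, also over all 13 arrays with the run as a term, where the lowest adjusted p by limma was 0.0674 at 4 h and 0.0756 at 48 h against 12 and 15 h. Counts over all genes moved more: 275 at 4 h (97 without dim genes, 555 without the first control), 16 at 9 h (0 with only the groups compared, 356 without the second control), 10 at 12 h (2 to 21), 22 at 15 h (1 to 68), 31 at 48 h (4 to 205) and 55 at 48 h against 12 and 15 h (9 to 499). The fit over all 13 arrays counted the arrays of the smaller run as independent despite their repeated values, so its p-values may be too low. No paired analysis was possible because the labels carry no replicate numbers. With 4 residual degrees of freedom, the median standard error of the 42 genes in the 48 h comparison with 12 and 15 h was 0.10, beside a median difference of 0.20.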
